A study of Mus musculus with 14 samples.

Results

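The protein-coding genes of the respiratory chain and ATP synthase were followed in 14 whole-spleen libraries from mice, 13 genes of them encoded in mitochondrial DNA and 97 in the nucleus. They were taken by symbol from the count table: every entry beginning mt-, Nduf, Uqcr or Atp5, the Cox4 to Cox8 entries except 1 isoform gene that is not analysed here, the 4 Sdh subunit genes and Cyc1. This gave 110 of the 22116 named genes. The 4 groups were wild-type female BALB/c mice, 6 to 8 weeks old, of 1 batch. Imiquimod, an agonist of Toll-like receptor 7 used to provoke psoriasis-like skin inflammation, had been given as a 5% cream daily for 5 days on the back (imiquimod-dorsal, n = 4) or the ear (imiquimod-ear, n = 4). The third model used IL-23, which maintains IL-17-producing lymphocytes: the recombinant mouse protein was given into ear skin every other day for 7 days, 4 times in all, with 1 µg going to each ear (IL-23-ear, n = 3). The control mice had petrolatum on back and ears (control, n = 3), although the series' design text calls them untreated. The skin was treated and the spleen was sampled, and the length of treatment, the route and the site differ between the models. No group is described as injected without IL-23, so IL-23 and the injection itself cannot be told apart. The number after a group's name is its replicate number in the labels.

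The respiratory chain passes electrons from NADH and succinate to oxygen through complexes I to IV and pumps protons out of the mitochondrial matrix, and complex V, the ATP synthase, uses the return flow to make ATP. Complexes I, III, IV and V are built from subunits of 2 genomes, whereas all subunits of complex II come from nuclear genes. Mitochondrial genes are transcribed in the matrix as long polycistronic RNAs by a dedicated polymerase and are cut apart afterwards, while each nuclear subunit gene has its own promoter and its protein is imported. In the spleen, resting lymphocytes hold few mitochondria, and dividing lymphocytes and developing red cells hold more.

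The mouse mitochondrial genes lie so close that some share bases, which matters for reading single values. In GRCm39, mt-Atp8 and mt-Atp6, small ATP synthase subunits, share 43 bases at chrM:7927-7969, mt-Nd4l and mt-Nd4 share 7 bases at chrM:10167-10173, and mt-Nd5 and mt-Nd6, which lie on opposite strands, share 14 bases at chrM:13552-13565. The sequences below show these overlaps in capitals on the plus strand, each with 12 bases on either side.
mt-Atp8 and mt-Atp6: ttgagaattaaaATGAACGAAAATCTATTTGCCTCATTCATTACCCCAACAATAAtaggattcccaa
mt-Nd4l and mt-Nd4: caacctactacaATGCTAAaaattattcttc
mt-Nd5 and mt-Nd6: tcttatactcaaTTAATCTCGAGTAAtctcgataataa
The libraries were poly(A)-selected and did not keep the strand, so reads over these bases, and reads of transcripts not yet cut apart, cannot be given to 1 gene. The same holds for 63 of the 110 members whose exons overlap an annotated exon on the opposite strand.

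The nuclear genes have separate promoters. Of the 97 nuclear members, 76 were matched to promoters in RefSeq (GRCm38.p6, 250 bases before to 50 after the start). The motif GCGCATGC, bound by NRF1 (nuclear respiratory factor 1), was found on either strand in 14.8% of the members' 81 promoters, against 2.71% of all 32851 promoters. AAGATGGC, bound by YY1, was in 13.6% and 2.75%, and CCGGAAGT, bound by ETS factors such as GABP, was in 6.17% and 3.89%. In all 27 of the 76 genes held at least 1 of them. A pair of promoters is printed because these genes rose most in their complexes in the imiquimod-dorsal spleens. Capitals mark the motifs, and the gene's strand is shown. Uqcr11, a small subunit of complex III, has a promoter at chr10:80406772-80407071 on the minus strand with an ETS motif followed by an NRF1 motif in reverse. Cox6b2, the testis isoform of a complex IV subunit, has one at chr7:4753045-4753344 on the minus strand in which none of the 3 letter strings occurs.
Uqcr11: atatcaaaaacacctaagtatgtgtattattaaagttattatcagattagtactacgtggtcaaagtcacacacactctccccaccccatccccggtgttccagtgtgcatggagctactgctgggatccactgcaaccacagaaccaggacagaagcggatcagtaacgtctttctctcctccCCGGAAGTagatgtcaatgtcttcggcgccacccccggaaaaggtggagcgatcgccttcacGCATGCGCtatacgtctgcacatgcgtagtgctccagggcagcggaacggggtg
Cox6b2: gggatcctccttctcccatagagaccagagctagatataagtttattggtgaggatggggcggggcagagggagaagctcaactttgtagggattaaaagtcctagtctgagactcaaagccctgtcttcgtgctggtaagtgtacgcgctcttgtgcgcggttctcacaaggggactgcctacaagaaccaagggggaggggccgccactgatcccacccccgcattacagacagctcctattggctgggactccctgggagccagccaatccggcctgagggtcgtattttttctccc
The median log2 fold change of imiquimod-dorsal over control was 0.71 for the 12 tested members with the NRF1 motif and 0.78 for the 62 matched members without it. For the YY1 motif it was 0.71 for 11 members with it and 0.75 for 63 without. The ETS motif went the other way, with 0.85 for 5 members and 0.74 for 69. These differences were not tested.

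Each library held 28354674 to 40289411 counts over named genes, and 106 of the 110 members passed the filter on low counts, all 13 mitochondrial and 93 nuclear ones. The 4 that did not pass, Cox7b2, Cox8c, Cox8b and Ndufb11b, are described with the isoforms. Levels are CPM, counts scaled to a common library size with TMM factors, differences are log2 fold changes with their SE, and a gene is said to have risen or fallen where its adjusted p in edgeR's quasi-likelihood test over 15159 genes was below 0.05. Defining markers of B cells, T cells and red pulp macrophages were present in every group, and none of these markers was at 0 throughout. A pair of libraries held markers of other organs. Striated muscle markers summed to 1084 CPM in imiquimod-ear 4, to 31.95 in IL-23-ear 2 and to 6.26 to 16.2 elsewhere, and pancreas markers summed to 444 CPM in imiquimod-dorsal 4 and to at most 16.1 elsewhere.

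In control spleens the 13 mitochondrial genes had a median level of 2073 CPM per kilobase of exon, against 13.5 for the 93 nuclear members. Exon length here is the union of a gene's annotated exons over all its transcripts, 9416 bases for Cox6c and 1545 for mt-Co1. A union longer than the transcript lowers the value, so the gap is not a ratio of transcript levels. mt-Co1, the catalytic subunit of complex IV, stood highest of the mitochondrial genes at 6720 CPM per kilobase and mt-Nd3 of complex I lowest at 251.7. Of all counts over named genes, the mitochondrial genes took 2.44%, 2.28%, 2.46% and 2.71% in the imiquimod-dorsal libraries, 2.97%, 2.89%, 3.00% and 3.40% in the imiquimod-ear libraries, 3.60%, 3.46% and 3.53% in the IL-23-ear libraries and 2.98%, 3.06% and 2.75% in the control libraries. The exact binomial (Clopper-Pearson) 95% interval of each share spans at most 0.0127 percentage points and covers counting error only. Every imiquimod-dorsal library lay below every control library, every IL-23-ear library lay above every control library, and the imiquimod-ear and control libraries overlapped. Haemoglobin RNA is part of this total and summed to 74170 to 124900 CPM in imiquimod-dorsal and 11230 to 37900 CPM in control libraries. With haemoglobin and immunoglobulin genes taken out of the total, the mitochondrial share was 2.73%, 2.58%, 2.73% and 2.97% in imiquimod-dorsal and 3.16%, 3.18% and 2.83% in control libraries, which then overlapped, and 3.57% to 3.71% in IL-23-ear libraries, all still above control. After TMM scaling the summed level of the mitochondrial genes was 28330 ± 1211 CPM (SD, n = 4) in imiquimod-dorsal and 26640 ± 1454 CPM (n = 3) in control spleens, the opposite order to the shares. Nuclear members took 0.955% to 1.01% in imiquimod-dorsal, 0.811% to 1.00% in imiquimod-ear, 0.762% to 0.793% in IL-23-ear and 0.683% to 0.797% in control libraries. The ratio of mitochondrial to nuclear counts was 2.50 ± 0.17 (SD, n = 4) in imiquimod-dorsal, 3.39 ± 0.57 (n = 4) in imiquimod-ear, 4.57 ± 0.18 (n = 3) in IL-23-ear and 4.09 ± 0.56 (n = 3) in control spleens. Since these are whole spleens, fewer cells of a type and less RNA per cell cannot be told apart.

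**Figure D1:**
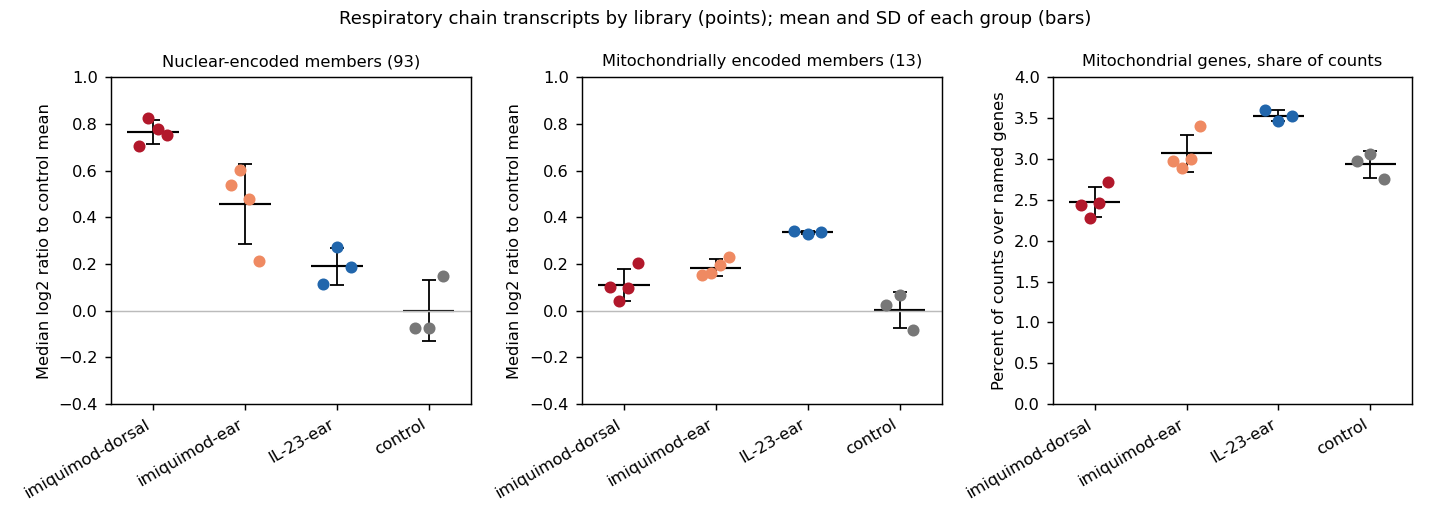
The left and middle panels plot, for each library, the median over the 93 nuclear and the 13 mitochondrial members of the log2 ratio to the control mean, and the right panel plots the percent of counts from mitochondrial genes; points are libraries, and bars are the group mean and SD. Nuclear medians lay between 0.71 and 0.83 in imiquimod-dorsal and between -0.08 and 0.15 in control libraries, while mitochondrial medians lay between 0.04 and 0.20 and between -0.08 and 0.07 in the same groups.

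The first question was what imiquimod on the back did to both sets of genes. In imiquimod-dorsal spleens 85 of the 93 tested nuclear members rose and 0 fell, against 32.3% of all tested genes called higher and 27.6% called lower. Their median log2 fold change was 0.75, against -0.0007 over all genes. Of the 13 mitochondrial genes, 5 rose, 1 fell and 7 did not pass, with a median of 0.12. The share of them that rose was near the share over all genes. Within the same fit the median of the mitochondrial genes was thus 0.63 below that of the nuclear members. The direction of the mitochondrial genes depends on the scaling: with upper-quartile factors, which move the median of all genes by -0.23 and the share of calls that are higher to 34.7% against 53.9%, no mitochondrial gene rose and 4 fell. Of the nuclear members 76 rose and 1 fell there. In the edgeR fit with TMM factors 0 nuclear members had a negative value even at an unadjusted p under 0.05, and DESeq2 and limma-voom each called 0 lower.

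By median, complexes III and IV stood highest, a difference that was not tested. All 9 tested nuclear members of complex III rose, with a median of 0.94, and 13 of 16 of complex IV, with a median of 0.89. All 17 of complex V rose, with a median of 0.79, as did 35 of 37 of complex I (0.71) and all 4 of complex II (0.49). Of the 8 Ndufaf genes, which encode assembly factors of complex I that are not part of the finished enzyme, 5 rose, with a median of 0.46. The summed level of nuclear subunits was 1.64 times the control mean for complex I, 1.43 for II, 1.76 for III, 1.89 for IV and 1.75 for V, against 1.02, 1.08, 1.07 and 1.14 for the mitochondrial subunits of complexes I, III, IV and V.

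**Figure D2:**
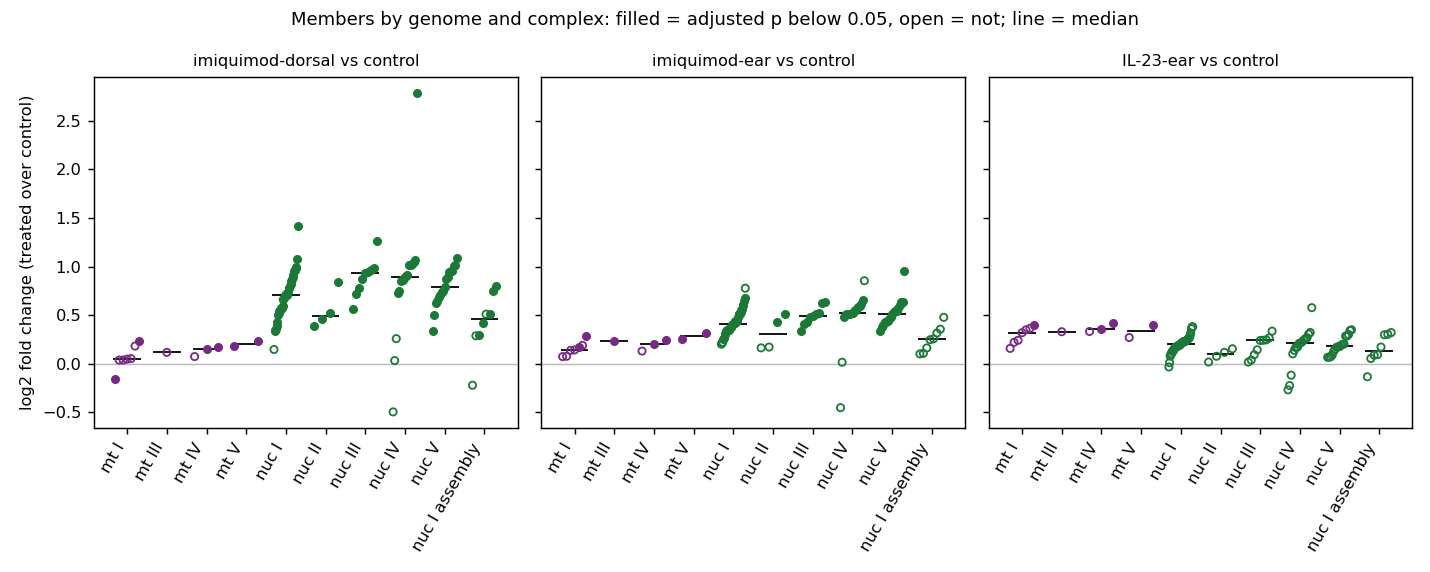
The log2 fold change of each tested member over control is plotted by genome (mt, mitochondrial; nuc, nuclear) and complex for the 3 treated groups; filled points passed at an adjusted p below 0.05, open points did not, and lines are medians. Atp5if1 and Cox7a2l, which belong to no complex as drawn, are not shown; in imiquimod-dorsal the nuclear medians lie at 0.46 to 0.94 and the mitochondrial ones at 0.05 to 0.21.

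In complex I, Ndufb9, an accessory subunit of the membrane arm (chr15:58805594-58814819 in GRCm39), rose most. It had 113, 130, 117 and 114 CPM in imiquimod-dorsal, 67.4, 62.4, 72.4 and 58.7 CPM in imiquimod-ear, 47.1, 57.2 and 53.6 CPM in IL-23-ear and 38.8, 40.9 and 53.7 CPM in control libraries. All imiquimod-dorsal libraries stood above all others, with a log2 fold change over control of 1.41 ± 0.12 (SE; adjusted p = 9.70e-07). Its exons overlap those of Mtss1 and Tatdn1 on the other strand. Ndufb1, also of the membrane arm, rose by 1.08 ± 0.16 (adjusted p = 6.13e-05). The core subunits that take electrons from NADH, Ndufv1, Ndufv2 and Ndufs1, rose by 0.80 to 0.96, a group chosen after the values were seen. Ndufv1, which holds the NADH site, had 130, 142, 132 and 137 CPM in imiquimod-dorsal and 66.2, 61.8 and 80.6 CPM in control libraries, without overlap. Ndufv3, an accessory subunit beside it, did not pass, with 0.15 ± 0.08.

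In complex II, the succinate dehydrogenase that also works in the citric acid cycle, the membrane anchor gene Sdhd changed most. Sdhd had 132, 152, 152 and 141 CPM in imiquimod-dorsal and 73.1, 75.9 and 92.6 CPM in control libraries, without overlap (0.84 ± 0.11, adjusted p = 2.49e-05). The iron-sulfur subunit Sdhb rose by 0.52 ± 0.09 (adjusted p = 0.000265). The other anchor, Sdhc, rose by 0.46 ± 0.07 and the flavoprotein Sdha by 0.39 ± 0.07.

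In complex III, Uqcr11 (chr10:80236542-80242676 in GRCm39) had 49.4, 65.4, 58.8 and 56.9 CPM in imiquimod-dorsal and 22.7, 20.9 and 28.2 CPM in control libraries. The groups did not overlap, the gene shares exonic bases with 3300002P09Rik on the other strand, and the log2 fold change was 1.27 ± 0.15 (adjusted p = 8.29e-06). Uqcrq, another small subunit, rose by 0.99 ± 0.14 (adjusted p = 3.80e-05). Cyc1, the cytochrome c1 that hands electrons to cytochrome c, had 131, 157, 147 and 148 CPM in imiquimod-dorsal and 66.7, 74.0 and 85.9 CPM in control libraries (0.95 ± 0.10, adjusted p = 6.11e-06). Their mitochondrial partner mt-Cytb, the cytochrome b of the same complex, had 2766, 2674, 2792 and 2981 CPM in imiquimod-dorsal and 2725, 2638 and 2392 CPM in control libraries. These overlapped, and mt-Cytb did not pass (0.12 ± 0.06, adjusted p = 0.0902).

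In complex IV, Cox6b2 (chr7:4754789-4756093 in GRCm39) stood apart from its ubiquitous counterpart Cox6b1. Cox6b2 had 21.4, 26, 20.5 and 18.0 CPM in imiquimod-dorsal, 5.34, 2.04, 6.33 and 3.97 CPM in imiquimod-ear, 3.13, 2.68 and 2.17 CPM in IL-23-ear and 2.10, 2.18 and 5.02 CPM in control libraries. Only the imiquimod-dorsal libraries were above 7 CPM, and the log2 fold change over control was 2.79 ± 0.38 (adjusted p = 4.18e-05). Of the counts of Cox6b2 and Cox6b1 together, Cox6b2 took 12.6% ± 1.4 (SD, n = 4) in imiquimod-dorsal, 3.75% ± 1.57 (n = 4) in imiquimod-ear, 2.75% ± 0.50 (n = 3) in IL-23-ear and 3.57% ± 1.45 (n = 3) in control spleens. Cox5b-ps rose by 1.07 ± 0.22 (adjusted p = 0.000893), but its symbol marks a pseudogene of Cox5b, and how reads that match both were counted is not given in the sources used here. The catalytic core is mitochondrial: mt-Co1 had 10720, 10670, 10730 and 11590 CPM in imiquimod-dorsal and 10490, 10960 and 9695 CPM in control libraries, which overlapped, and did not pass (0.07 ± 0.06, adjusted p = 0.290). mt-Co2, which receives electrons from cytochrome c, rose by 0.15 ± 0.06 (adjusted p = 0.0333) and mt-Co3 by 0.18, and both had negative values that did not pass, -0.08 and -0.05, with upper-quartile factors.

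In complex V, Atp5mc1, Atp5mc2 and Atp5mc3 encode the same mature c subunit of the rotor with different import sequences. Atp5mc1 (chr11:95959678-95966757 in GRCm39) had 49.4, 50.9, 53.8 and 48.4 CPM in imiquimod-dorsal and 20.7, 19.4 and 31.4 CPM in control libraries. The groups did not overlap, although exons of Gm74232 lie on the other strand (1.09 ± 0.22, adjusted p = 0.000961). Atp5mc3, the most counted of the 3, rose by 0.88 ± 0.12 and Atp5mc2 by 0.34 ± 0.10 (adjusted p = 0.00927), a call that was lost with upper-quartile factors (0.11, adjusted p = 0.284). Atp5mc2 therefore made up 28.3% ± 1.0 (SD, n = 4) of the c subunit counts in imiquimod-dorsal and 37.0% ± 2.5 (n = 3) in control spleens. Atp5me, a small membrane subunit, rose by 1.02 ± 0.17. Of the mitochondrial subunits, mt-Atp8 had 468, 476, 467 and 576 CPM in imiquimod-dorsal and 430, 436 and 403 CPM in control libraries (0.23 ± 0.09, adjusted p = 0.0296), and mt-Atp6, the proton channel, rose by 0.18 ± 0.06 (adjusted p = 0.0123). Neither passed with upper-quartile factors, where mt-Atp6 was at -0.05 and mt-Atp8 at 0.00.

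Atp5if1 (chr4:132257215-132262823 in GRCm39) encodes the protein that blocks ATP synthase from running backwards, and in mice and zebrafish it has been tied to haem synthesis in red cell precursors. It had 328, 357, 306 and 299 CPM in imiquimod-dorsal, 89.6, 63.3, 121 and 64.9 CPM in imiquimod-ear, 49.2, 69.5 and 41.5 CPM in IL-23-ear and 44.8, 47.7 and 73.7 CPM in control libraries. The imiquimod-dorsal libraries stood far above the rest, at 2.54 ± 0.27 over control on the log2 scale (adjusted p = 7.00e-06), with exons of Gm12999 on the other strand. Atp5f1b, the catalytic beta subunit of the enzyme it binds, rose by 0.96, so that the ratio of Atp5if1 to Atp5f1b counts was 0.245 ± 0.020 (SD, n = 4) in imiquimod-dorsal, 0.0878 ± 0.0280 (n = 4) in imiquimod-ear, 0.0746 ± 0.0179 (n = 3) in IL-23-ear and 0.0804 ± 0.0122 (n = 3) in control spleens. Cox7a2l, a factor that joins complexes III and IV into supercomplexes, rose by 0.29 ± 0.07 (adjusted p = 0.00232), and by 0.06 with upper-quartile factors, where it did not pass.

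**Figure D3:**
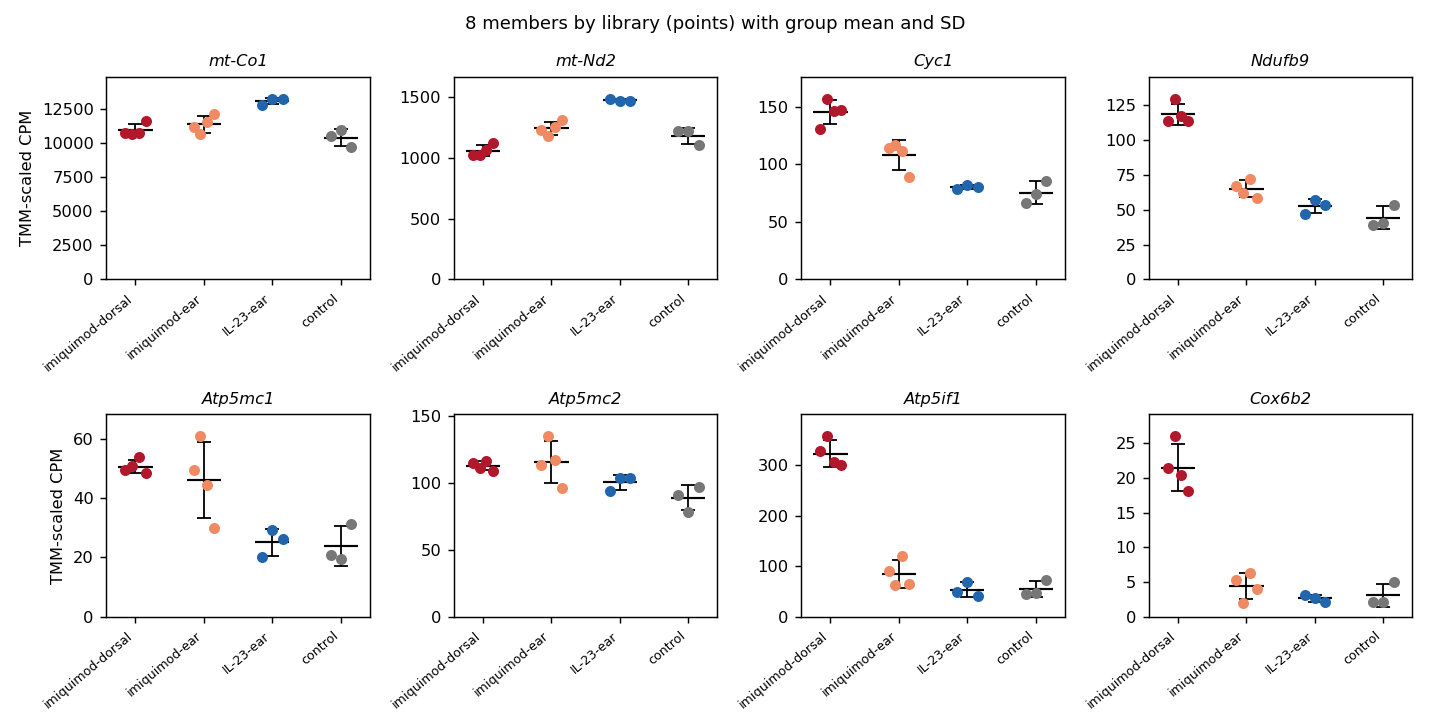
TMM-scaled CPM of 8 members is plotted for each library (points), with the group mean and SD; each panel has its own axis from 0. mt-Co1 and mt-Nd2 are highest in IL-23-ear, the nuclear genes are highest or joint highest in imiquimod-dorsal, and Atp5if1 and Cox6b2 are far higher there than elsewhere, at 299 to 357 and 18.0 to 26 CPM.

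Of the mitochondrial genes of complex I, mt-Nd3 rose in imiquimod-dorsal by 0.24 ± 0.06 (adjusted p = 0.00404), and by 0.01 with upper-quartile factors, where it did not pass. mt-Nd2, a core subunit of the proton-pumping arm, was the 1 mitochondrial gene that fell. It had 1022, 1027, 1062 and 1124 CPM in imiquimod-dorsal, 1228, 1182, 1256 and 1308 CPM in imiquimod-ear, 1486, 1469 and 1468 CPM in IL-23-ear and 1220, 1222 and 1103 CPM in control libraries. The imiquimod-dorsal and control libraries overlapped, and the log2 fold change was -0.16 ± 0.06 (adjusted p = 0.0308). The call was lost when imiquimod-dorsal 2, 3 or 4 was left out, and its adjusted p lay between 0.000265 and 0.106 over 24 alternatives. mt-Nd6, the only member read from the other strand of mitochondrial DNA, had 736, 634, 728 and 806 CPM in imiquimod-dorsal and 611, 677 and 632 CPM in control libraries, which overlapped (0.18 ± 0.08, adjusted p = 0.0779). Because the libraries did not keep the strand, the mt-Nd6 values may include reads of RNA from the opposite strand. mt-Nd1, mt-Nd4, mt-Nd4l and mt-Nd5 had log2 fold changes of 0.04 to 0.05 and did not pass. The count of 5 higher mitochondrial genes was 1 without control 2, 4 or 5, without IL-23-ear 1, 2 or 3, or without imiquimod-ear 1, and was 3 without imiquimod-dorsal 5, imiquimod-ear 3 or imiquimod-ear 5.

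Markers of several, but not all, cell types moved with these genes. In imiquimod-dorsal all 16 erythroid markers rose, summing to 11380 to 18420 CPM there and to 869 to 1035 CPM in control spleens. All 16 cell division markers rose, summing to 6468 to 8361 CPM and 761 to 1411 CPM in the same groups. All 14 neutrophil markers rose, all 12 T cell markers fell, with sums of 312 to 384 CPM and 1226 to 1714 CPM, and all 8 NK cell markers fell. No listed erythroid, cell division or T cell marker was at 0 throughout. Their part in the rise of nuclear members, Atp5if1 and Cox6b2 was not tested.

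In imiquimod-ear spleens 73 of 93 nuclear members rose and 0 fell, against 14.3% of all tested genes called higher and 6.98% called lower, and their median log2 fold change was 0.45 against 0.02 over all genes. In edgeR 0 nuclear members had a negative value at an unadjusted p under 0.05, and 0 were called lower in DESeq2 and limma-voom. The count of 73 was 33 without control 4 and 37 without control 2. It was 35 when imiquimod-ear and control libraries alone were fitted. It was lowest with a block for the replicate number, a fit described at the end with the other processing choices. All 9 of complex III and all 17 of complex V rose, as did 32 of 37 of complex I, 12 of 16 of complex IV and 2 of 4 of complex II, while 0 of the 8 assembly factors did. With upper-quartile factors the share of calls that were higher was 52.4%, against 67.1%.

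The largest rise was that of Atp5mc1, with 49.4, 60.8, 44.6 and 30 CPM in imiquimod-ear and 20.7, 19.4 and 31.4 CPM in control libraries. The groups overlapped through imiquimod-ear 5 and control 5 (0.95 ± 0.22, adjusted p = 0.0106). Its adjusted p lay between 0.000286 and 0.0937 over 24 alternatives. Atp5mc3 rose by 0.64 ± 0.12 (adjusted p = 0.00400). Atp5mf, a small subunit of the membrane part, rose by 0.61 ± 0.11.

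Nuclear members of complex I reached 0.78, and Ndufs8 rose most among called members without overlap. Ndufs8, at the quinone arm, had 70.9, 81.9, 65.0 and 59.8 CPM in imiquimod-ear and 42.5, 44.9 and 49.0 CPM in control libraries (0.61 ± 0.10, adjusted p = 0.00296). Ndufs6, an accessory subunit, rose by 0.61 ± 0.11. In complex III, Uqcr11 rose by 0.64 ± 0.14 and Uqcr10 by 0.62 ± 0.11. In complex IV, Cox7c and Ndufa4, which is now counted as a subunit of this complex, rose by 0.61 ± 0.13 and 0.59 ± 0.10. In complex II, Sdhd rose by 0.52 ± 0.11 and Sdhb by 0.43 ± 0.09. Neither Atp5if1 (0.61 ± 0.25, adjusted p = 0.0992) nor Cox6b2 (0.51 ± 0.36, adjusted p = 0.340) passed.

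Of the 13 mitochondrial genes, 7 rose in imiquimod-ear spleens, against 14.3% of all tested genes called higher and 6.98% called lower. Their median was 0.19, against 0.02 over all genes. mt-Atp8 had 488, 561, 567 and 496 CPM in imiquimod-ear and 430, 436 and 403 CPM in control libraries, without overlap (0.32 ± 0.09, adjusted p = 0.0181). mt-Nd3 rose by 0.29, mt-Atp6 by 0.26, mt-Co3 and mt-Cytb by 0.24, mt-Co2 by 0.21 and mt-Nd4 by 0.18. mt-Nd1, mt-Nd2, mt-Nd4l, mt-Nd5, mt-Nd6 and mt-Co1 did not pass, with values of 0.07 to 0.19. These calls depend on the processing: 1 of 13 passed with upper-quartile factors, and 0 rose and 6 fell when a trend on gene length was removed from each library. The count of 7 was 2 without control 4 or 5, 3 without control 2 and 4 without imiquimod-ear 3.

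Library imiquimod-ear 5 was the nearest of its group to the controls in nuclear members and cell division markers, but not in mitochondrial genes. Its mitochondrial share, 3.40%, and its mitochondrial median, 0.23, were the highest of the imiquimod-ear libraries. Its nuclear median was 0.21 above the control mean, against 0.48 to 0.60 in the other imiquimod-ear libraries, and its cell division markers summed to 1379 CPM, against 2879 to 3566 CPM. Without it 78 nuclear members rose. Among the controls, control 5 had the highest nuclear median, 0.15, and the highest cell division sum, 1411 CPM. In imiquimod-ear spleens as a group, all 16 cell division and all 8 plasma cell markers rose, plasma cell markers summing to 3172 to 4802 CPM, against 1273 to 1530 CPM in control spleens, and 0 of 16 erythroid markers passed. Of the neutrophil markers 9 of 14 rose. Lower calls were made for 4 of 10 B cell, 2 of 8 NK cell, 1 of 12 T cell, 2 of 10 red pulp macrophage and 3 of 12 stroma and endothelium markers. Their part in the rise of nuclear members was not tested.

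After IL-23 in the ear, 8 of the 15159 genes passed in all, 7 higher and 1 lower, and 1305 genes had an unadjusted p under 0.05. Mitochondrial genes were 4 of the 7 that rose, against a background of 0.0462% called higher and 0.0066% called lower, and 0 of 93 nuclear members passed in edgeR, where 27 had an unadjusted p under 0.05, all with positive values. In DESeq2 the counts were 10 mitochondrial and 3 nuclear members of 132 genes, and in limma-voom 14 genes passed. The nuclear median was 0.19 and the mitochondrial median 0.33.

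mt-Co2 had 2504, 2486 and 2536 CPM in IL-23-ear and 1915, 1972 and 1753 CPM in control libraries (0.42 ± 0.06, adjusted p = 0.0450). mt-Nd3 had 118, 119 and 111 CPM in IL-23-ear and 92.1, 84.6 and 86.1 CPM in control libraries (0.40 ± 0.06, adjusted p = 0.0450). mt-Atp6 had 2441, 2530 and 2478 CPM in IL-23-ear and 1895, 2003 and 1764 CPM in control libraries (0.40 ± 0.06, adjusted p = 0.0450). Neither these nor mt-Co3 (0.36) overlapped with control. All 13 mitochondrial genes and 35 of 93 nuclear members were higher in every IL-23-ear library than in every control library, against 9.75% of all tested genes. The 9 mitochondrial genes that did not pass had log2 fold changes of 0.16 to 0.36.

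The 4 calls sit close to the threshold, with limma-voom calling 5. None was made with RLE or upper-quartile factors, without the filter, with the replicate block, with IL-23-ear and control alone in the fit or after removal of the length trend. None was made without any 1 of the 3 IL-23-ear, 3 control or 4 imiquimod-dorsal libraries or of imiquimod-ear 1 and 4, while 3 were made without imiquimod-ear 3 and 5 without imiquimod-ear 5. None of the 14 marker lists had a called member in this comparison. Summed T cell markers were 1746 to 1957 CPM in IL-23-ear and 1226 to 1714 CPM in control spleens, and erythroid markers 189 to 773 CPM and 869 to 1035 CPM, neither range overlapping. The part of these lists in the mitochondrial levels was not tested.

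Setting the ear against the back gives a direct test of the difference between the imiquimod models. In imiquimod-ear relative to imiquimod-dorsal spleens, 54 of 93 nuclear members were lower and 0 higher, against 24.5% of all tested genes called lower and 23.3% called higher. Their median was -0.32, against 0.03 over all genes. With upper-quartile factors, which move the median of all genes to 0.18, 36 nuclear members were lower and 2 higher, and the share of calls that were higher was 68.0% against 48.7%. Cox6b2 (-2.28 ± 0.33, adjusted p = 0.000128) and Atp5if1 (-1.93 ± 0.23, adjusted p = 3.73e-05) differed most, followed by Ndufb9 (-0.86 ± 0.10). The values were -0.63 for both Ndufv1 and Uqcr11, and -0.32 for Sdhd. In complex IV Cox7a2, the ubiquitous isoform of a small subunit, was lower (-0.54). In complex V the stator genes Atp5pd and Atp5pb were lower (-0.52 and -0.44), and Atp5mc1 did not pass (-0.13 ± 0.20). All 13 mitochondrial genes had positive values of 0.01 to 0.23, and 2 passed, mt-Nd2 (0.23 ± 0.05, adjusted p = 0.00332) and mt-Nd4 (0.14). Under upper-quartile factors 11 were higher, and after removal of the length trend 0 were higher and 7 lower. The count of 2 was 1 without imiquimod-dorsal 2, 3 or 4 or imiquimod-ear 4 or 5. In the same comparison all 16 erythroid, all 16 cell division and all 7 haemoglobin markers were lower, as were 8 of 14 neutrophil markers, while all 12 T cell, all 8 plasma cell and 7 of 8 NK cell markers were higher. Their part in the difference between the models was not tested.

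The ear models were compared in the same way. In IL-23-ear relative to imiquimod-ear spleens, 25 of 93 nuclear members were lower and 0 higher, against 10.2% of all tested genes called lower and 7.06% called higher, with a median of -0.27. Atp5mc1 had 20.0, 29.1 and 26.1 CPM in IL-23-ear and 49.4, 60.8, 44.6 and 30 CPM in imiquimod-ear libraries, without overlap (-0.88 ± 0.22, adjusted p = 0.0181; 0.000884 to 0.0855 over 24 alternatives). Lower values also passed for Atp5mc3 (-0.49), for Uqcrfs1, the Rieske iron-sulfur protein of complex III (-0.48), for Ndufc1 of complex I (-0.44) and for Cyc1 (-0.43). Sdhb and Cox4i1, the ubiquitous isoform of a complex IV subunit, were each lower (-0.32). Of the mitochondrial genes 4 were higher: mt-Nd2 (0.25 ± 0.06, adjusted p = 0.0135), mt-Co2 (0.21), mt-Co1 (0.20) and mt-Nd4 (0.17). The count of 25 rests on single libraries: it was 1 without IL-23-ear 1 or 3, 10 without IL-23-ear 2, 3 without imiquimod-ear 1, 4 without imiquimod-ear 3, 9 without imiquimod-ear 4, 16 without control 4 and 58 without imiquimod-ear 5. The count of 4 was 1 without IL-23-ear 3 or imiquimod-ear 4, 2 without IL-23-ear 1 or 2 or imiquimod-ear 1 or 3, and 7 without imiquimod-ear 5. Fitting these groups alone gave 2 nuclear and 1 mitochondrial gene. Markers moved here too: all 16 cell division, all 8 plasma cell, 4 of 14 neutrophil and 2 of 16 erythroid markers were lower, and 10 of 12 T cell, 2 of 8 NK cell and 3 of 10 red pulp macrophage markers were higher. Their part in this difference was not tested. Comparisons that share a group are not independent of each other.

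The tissue-restricted isoforms other than Cox6b2 were low and none passed. Cox4i2, an isoform found mainly in lung, took 0.204% ± 0.079 (SD, n = 4) of Cox4i2 and Cox4i1 counts in imiquimod-dorsal and 0.314% ± 0.088 (n = 3) in control spleens. Cox7a1, a heart and muscle isoform, had 4, 4, 12 and 4 counts in imiquimod-dorsal, 5, 12, 23 and 9 in imiquimod-ear, 8, 13 and 9 in IL-23-ear and 7, 5 and 8 in control libraries. Its highest count was in imiquimod-ear 4, the library with muscle markers at 1084 CPM. Cox8b, another heart and muscle isoform, had 14 counts in that library and 0 to 6 in the others, and 0 in every imiquimod-dorsal and control library, which allows up to 3 counts per library. Ndufa4l2, a hypoxia-inducible relative of Ndufa4, took 1.14% ± 0.34 (n = 4) of their joint counts in imiquimod-dorsal, 1.54% ± 0.75 (n = 4) in imiquimod-ear, 2.22% ± 0.55 (n = 3) in IL-23-ear and 2.95% ± 1.16 (n = 3) in control spleens, and its log2 fold change did not pass in imiquimod-dorsal (-0.50). Cox7b2, Cox8c and Ndufb11b had 0 counts in all 14 libraries. Ndufa12, an accessory subunit of complex I, varied within groups and did not pass: it had 23.5, 35.5, 28.04 and 18.7 CPM in imiquimod-dorsal and 12.5, 14.5 and 23.2 CPM in control libraries, which overlapped. Its unscaled counts were 1347, 1089, 940 and 856 in imiquimod-ear and 481, 452 and 896 in control libraries, which overlapped too.

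Other mitochondrial pathways were described by 12 lists with no member gene in them, to be read against the 32.3% of all tested genes called higher and the 27.6% called lower in imiquimod-dorsal. In imiquimod-dorsal all 19 citric acid cycle genes rose, for example Dlst and Ogdh of the oxoglutarate dehydrogenase complex by 0.84 and 0.70. Of 30 protein import genes 27 rose and 1 fell, with the outer membrane receptor subunit Tomm22 at 0.84. All 9 genes of oxidant defence rose, with a median of 1.44, among them the lipid peroxide reductase Gpx4 (1.44) and the manganese superoxide dismutase Sod2 (0.86). Of 13 carriers and pores 11 rose, with the pyruvate carrier subunit Mpc2 at 1.34 and the channel Vdac3 at 1.00. Of 9 electron carriers outside the complexes 5 rose, with the sulfite oxidase Suox at 1.74 and Etfa at 0.83. Of 35 assembly factors of complexes II to V 17 rose and 1 fell, with the copper chaperones Cox17 and Cox19 at 0.85 and 0.77. Of 13 coenzyme Q synthesis genes 8 rose and 1 fell, Coq7 at 1.27 and Coq2 at -0.49.

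Lists for the mitochondrial genome itself and for regulation held genes called in both directions. Of 20 genes for mitochondrial DNA upkeep and transcription 4 rose and 3 fell, with a median of 0.03. The ribosomal RNA methyltransferase Tfb1m was at 0.98 and the thymidine kinase Tk2 at -0.75. Of 27 genes for mitochondrial RNA processing and stability 15 rose and 1 fell, led by the oligoribonuclease Rexo2 at 1.39. Of 13 regulators of mitochondrial biogenesis 5 rose and 3 fell, among them Nrf1, whose protein binds the motif printed above, at 0.88 ± 0.10 and Gabpb1 at 0.60 ± 0.07. Nrf1 had 82.1, 98.6, 85.5 and 81.9 CPM in imiquimod-dorsal and 47.4, 44.4 and 49.6 CPM in control libraries, without overlap. Of 21 glycolysis genes 7 rose and 2 fell, with hexokinase Hk1 at 1.79 and the glucose transporter Slc2a1 at -1.02, and of 11 other complex I assembly factors 5 rose and 1 fell. The shares of glycolysis genes and biogenesis regulators that rose were near the share over all genes.

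In imiquimod-ear, where 14.3% of all tested genes were called higher and 6.98% lower, the same lists held 10 of 19 citric acid cycle genes higher, 14 of 30 import genes, 9 of 13 carriers, 3 of 9 oxidant defence genes, 3 of 9 electron carriers, 3 of 13 coenzyme Q genes, 5 of 35 assembly factors of complexes II to V and 6 of 27 RNA processing genes, with 0 lower in each. For the assembly factors of complexes II to V this is the share over all genes. Glycolysis had 11 of 21 higher and 1 lower, with phosphoglycerate kinase Pgk1 at 0.90 and triosephosphate isomerase Tpi1 at 0.91. The DNA upkeep list and the other complex I assembly list each had 1 higher and 1 lower, and 0 of 13 biogenesis regulators passed. In IL-23-ear 0 genes of the 12 lists passed in edgeR.

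**Figure D4:**
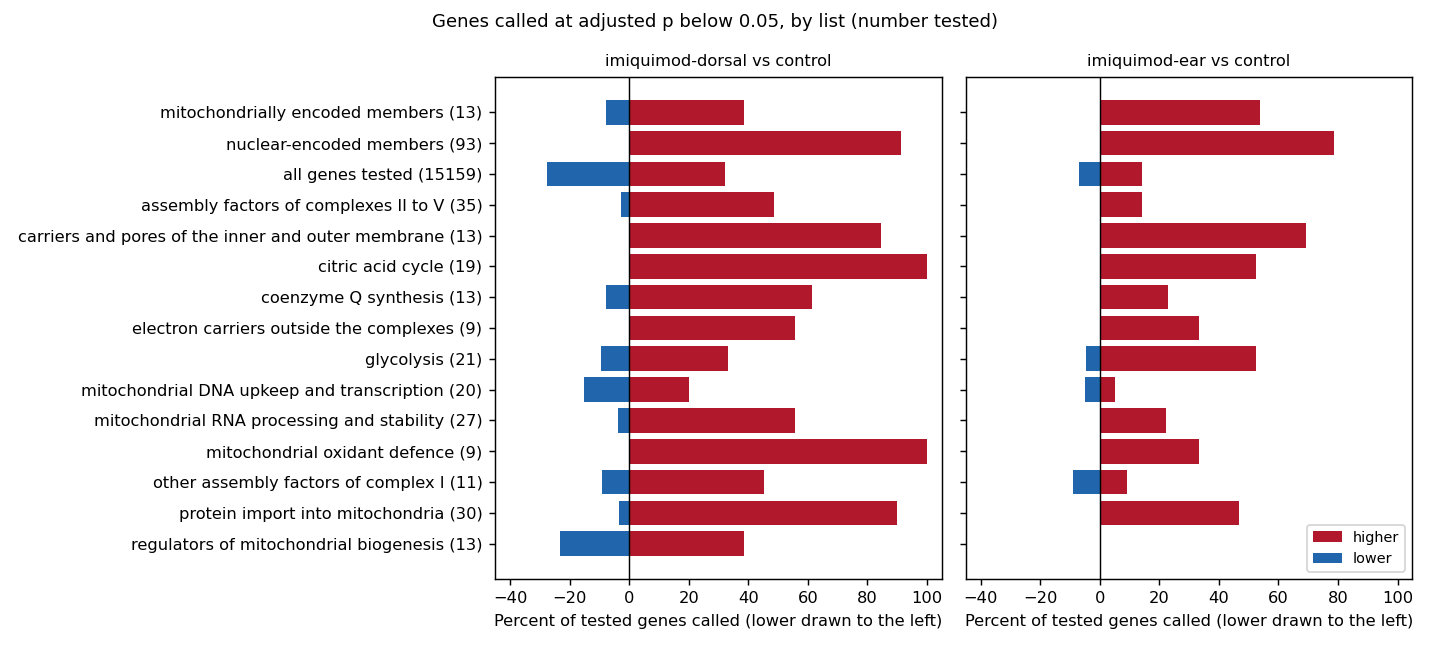
Bars give the percent of tested genes called higher (to the right) and lower (to the left) over control for the 2 sets of members, all genes and the 12 pathway lists, with the number tested in brackets; imiquimod-dorsal is on the left and imiquimod-ear on the right. Nuclear members, with 85 and 73 of 93 higher, stand beside the citric acid cycle, with 19 and 10 of 19.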

How the data were processed

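Poly(A) RNA of 14 spleens was read from both ends with reads of 150 bases and without strand, per the labels' protocols. The deposited table holds whole numbers that differ in total between libraries, that is, the authors' unnormalized count of reads for each gene. The submitters' processing notes name featureCounts 2.0.3, DESeq2 1.38.3, HISAT2 2.2.1, fastp 0.23.2 and StringTie 2.2.1, and the build GRCm39, with no roles. How reads with several matches were counted, such as those shared with nuclear copies of mitochondrial DNA or with pseudogenes, is not given in the sources used here. From the table's 22740 entries, 624 loci without a gene name, with 0.484% to 0.674% of each library's counts, were left out. A count of 0 allows up to 3 counts, or 0.0745 to 0.106 CPM. Intervals and this floor cover counting error only, because no molecular identifiers mark which reads are copies of 1 molecule. Replicates of a group differed by more than counting noise (chi-square divided by its degrees of freedom, 23.1 to 136). The design text speaks of biological replicates, and the labels name no mouse for a library.

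All 14 libraries entered 1 fit in edgeR 4.0.16 (R 4.3.3): TMM scaling, filterByExpr with a minimum count of 10, robust quasi-likelihood F test with 10 residual degrees of freedom, and Benjamini-Hochberg adjustment over 15159 genes at 0.05. Adjusted p-values come from it where no other tool is given. The SE of a log2 fold change was derived from the test, as the absolute log2 fold change divided by the square root of F. Alternatives were RLE and upper-quartile factors, library sizes without mitochondrial genes, a fit without haemoglobin and immunoglobulin genes, DESeq2 1.42.0 and limma-voom 3.58.1. Further ones were no filter, 2-group fits, a replicate block, removal of a trend on exonic length, and each library left out. Library medians use log2 of CPM plus 0.5. Lengths, the union of a gene's annotated exons, and coordinates are from GENCODE M39.

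Members, lists and tests were chosen with earlier results of these data known, so no p is given for a score over members. Named genes are all mitochondrial members, the 2 largest called rises and falls of each complex and comparison among non-overlapping groups, the isoforms, Atp5if1, Cox7a2l, the c subunit genes, and the 2 called genes with the smallest adjusted p of each pathway list; other named genes were chosen after their values were seen.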

Additional observations from a re-analysis of the deposited data

Results flagged for a closer look

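In groups of 4, a library was examined when its gap to the nearest other library was large relative to the range of its group. Of 94 gene and group combinations 10 stood out this way, and chance gives about 1 in 20. Imiquimod-dorsal 5 was highest of its group for mt-Co1 at 11590 CPM, with the others at 10670 to 10730, for mt-Atp8 at 575.9 CPM (467.3 to 475.7) and for mt-Nd4l at 160.4 CPM (144.0 to 146.7). Imiquimod-dorsal 3 was highest for Ndufs6 at 50.5 CPM (43.57 to 44.49) and Cox7c at 112.7 CPM (94.37 to 96.18). Imiquimod-dorsal 4 was highest for Cox7a1 at 0.3903 CPM (0.1135 to 0.1281), which is 12 counts against 4 in each of the others. Imiquimod-ear 5 was lowest for mt-Nd3 at 100.7 CPM (108.6 to 109.1), Sdhd at 93.88 CPM (121.6 to 123.2) and Ndufv1 at 77.99 CPM (90.46 to 91.56), and highest for Ndufa4l2 at 2.389 CPM (1.345 to 1.494).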

How the results depend on the processing

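Under 24 alternatives the number of nuclear members called higher in imiquimod-dorsal against control was 76 to 87, and the number called lower in imiquimod-ear against imiquimod-dorsal was 36 to 60. With upper-quartile factors imiquimod-dorsal against control had 1 nuclear member lower and 0 mitochondrial members higher. The 4 mitochondrial members lower there were mt-Nd1 at -0.18, mt-Nd2 at -0.39, mt-Nd4 at -0.19 and mt-Nd4l at -0.19. mt-Co2 at -0.0807, mt-Co3 at -0.0522 and mt-Atp6 at -0.047 had negative values that did not pass. With the same factors imiquimod-ear against control had 1 mitochondrial member higher. Imiquimod-ear against imiquimod-dorsal had 11, with 2 nuclear members higher, and IL-23-ear against control had 0 genes and 0 mitochondrial members. RLE factors, no filter, removal of the length trend, the replicate block and 2-group fits each gave 0 genes and 0 mitochondrial members called in IL-23-ear against control, DESeq2 gave 132 genes with 10 mitochondrial and 3 nuclear members higher, and limma-voom 14 genes. Imiquimod-ear against imiquimod-dorsal had 1 nuclear member higher in DESeq2, in limma-voom and without haemoglobin and immunoglobulin genes, whose removal made the mean mitochondrial share 2.754% in imiquimod-dorsal, 3.265% in imiquimod-ear, 3.626% in IL-23-ear and 3.059% in control libraries. Without the filter 1 mitochondrial member rose in imiquimod-dorsal.

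Removal of the length trend gave 0 mitochondrial members higher in imiquimod-dorsal and in imiquimod-ear against control. In imiquimod-ear against control 6 were lower. Negative values there were -0.18 for mt-Nd2, -0.45 for mt-Nd3, -0.65 for mt-Nd4l and -0.39 for mt-Nd6. Others were -0.26 for mt-Co2, -0.16 for mt-Co3, -0.21 for mt-Atp6 and -0.60 for mt-Atp8. Not every one of these values passed. Imiquimod-ear against imiquimod-dorsal then had 0 mitochondrial members higher and 7 lower, with mt-Nd3 at -0.62, mt-Nd4l at -0.65, mt-Nd6 at -0.48, mt-Co2 at -0.32, mt-Co3 at -0.26, mt-Atp6 at -0.31 and mt-Atp8 at -0.83. IL-23-ear against imiquimod-ear had 12 mitochondrial and 2 nuclear members higher, with mt-Atp8 at 0.94. The mitochondrial minus nuclear median was then -0.57 in imiquimod-ear against control, 0.0749 against imiquimod-dorsal and 0.72 in IL-23-ear against imiquimod-ear, in place of -0.27, 0.39 and 0.39. The cause was not tested.

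Fits of the compared groups alone gave 1 mitochondrial member higher in imiquimod-dorsal against control, 1126 genes, 35 nuclear and 1 mitochondrial members higher in imiquimod-ear against control, 1 mitochondrial member higher in imiquimod-ear against imiquimod-dorsal, and 1247 genes, 2 nuclear members lower and 1 mitochondrial member higher in IL-23-ear against imiquimod-ear. These fits use fewer libraries.

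Same-numbered libraries shared only a number: their deviations correlated at -0.24 to 0.18 over 13 pairs, 1 pair passed 0.1, other pairs reached -0.23 to 0.22, and 2 of 14 libraries correlated best with their own number. With the replicate block, imiquimod-dorsal against control had 3 mitochondrial members higher and 0 lower, imiquimod-ear against control 311 genes, 3 nuclear and 0 mitochondrial members higher, imiquimod-ear against imiquimod-dorsal 1 mitochondrial member higher, and IL-23-ear against imiquimod-ear 1261 genes, 1 nuclear member lower and 0 mitochondrial members higher.

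Leaving out each library in turn gave, for IL-23-ear against control, 0 to 12 genes and 0 to 5 mitochondrial members higher. For IL-23-ear against imiquimod-ear it gave 1101 to 4463 genes, 1 to 58 nuclear members lower and 1 to 7 mitochondrial members higher. For imiquimod-ear against control it gave 1066 to 4977 genes, 33 to 78 nuclear and 2 to 7 mitochondrial members higher. For imiquimod-dorsal against control it gave 1 to 6 mitochondrial members higher, 0 to 1 lower and 0 to 1 nuclear members lower, and for imiquimod-ear against imiquimod-dorsal 1 to 3 mitochondrial and 0 to 1 nuclear members higher. Counts of Cox7a1 and Cox8b are too low to show a difference at this depth.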
